A study of Mus musculus with 2 samples.

Results

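The cytosolic ribosome is built from a large and a small subunit, and each of its proteins is encoded by its own gene. The cytosolic ribosomal protein genes were taken from the mouse annotation by name: protein-coding genes whose symbol begins with Rpl or Rps and a number, together with Rpsa, Rplp0, Rplp1, Rplp2 and Fau, without pseudogenes, the ribosomal S6 kinases and Rps19bp1. The rule gave 86 of the 21911 named protein-coding genes of the nuclear chromosomes. Of these, 46 encode proteins of the large subunit and 32 proteins of the small subunit, and these 78 are called the canonical genes. The other 8 are paralogs of canonical genes: Rpl10l, Rpl22l1, Rpl36al, Rpl39l, Rpl3l, Rpl7l1, Rps27l and Rps27rt. The rule uses names alone.

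Accessible chromatin was mapped by DNase-seq, in which DNase I cuts DNA that is not wrapped in nucleosomes and the cuts are located by sequencing. The tissue was healthy midbrain of B6NCrl mouse embryos at day 14.5, from males and females pooled, with no treatment and no second condition. The samples formed 1 group of 2 biological replicates, separate biosamples of a single listed donor, and part of their spread may therefore be technical. Midbrain at this age is a mixture of cells, and a low peak may come from fewer cells with open chromatin or from less open chromatin per cell, which cannot be told apart in bulk tissue.

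Cells make most ribosomal proteins in about equal amounts and in very large quantity, and proliferating embryonic tissue depends on this supply. The genes are short and scattered over the genome, and their messenger RNAs open with a cytosine and a run of pyrimidines, the terminal oligopyrimidine tract, through which translation is controlled by mTOR. Their promoters belong to a class in which transcription starts within that run, at a so-called TCT initiator, often without a TATA box. Many carry small nucleolar RNAs in their introns, which guide the modification of ribosomal RNA. Loss of 1 copy of several of these genes causes Diamond-Blackfan anaemia in humans.

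Replicate 1 held 710176 peaks and replicate 2 held 267958, of which 24.7% and 64.0% were shared, meaning that they had at least 1 bp in common with a peak of the opposite list. The authors' value of a peak is a whole number of at most 150 and had the medians 6 (replicate 1) and 51 (replicate 2). Neither the definition of this value nor the sequencing depth is given in the sources used here, so values were compared only within a replicate, and a peak is called strong or weak by its value alone. As a check on the tissue, all 6 midbrain regulator genes, all 5 neural progenitor genes and all 5 neuronal genes examined had a shared peak at a promoter, as did 1 of 5 erythroid genes, 1 of 3 liver genes and 2 of 3 skeletal muscle genes, against 68.9% of all protein-coding genes.

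All 78 canonical genes had open promoters in both replicates. An open promoter here is one with a shared peak reaching within 1000 bp of any start annotated for its transcripts. This held for 83 of the 86 ribosomal protein genes, against 68.9% of all protein-coding genes. The 83 were made up of all 46 large subunit genes, all 32 small subunit genes and 5 of the 8 paralogs. In replicate 1 alone 83 of 86 had a promoter peak, against 75.8% of all genes, and in replicate 2 alone 84 of 86, against 72.4%. The extra gene in replicate 2 was Rpl39l. Every canonical promoter also lay in a hotspot, a wider accessible region, whose −log10 q stood at the file's cap of 100 in both replicates. The cap was also reached by 81.1% of all genes with a promoter peak in replicate 1 and 92.6% in replicate 2.

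Canonical promoters had high peak values. The strongest promoter peak of each canonical gene had a median value of 113 in replicate 1, with a range of 67 to 138, and of 143 in replicate 2, with a range of 126 to 149. Over all genes with a promoter peak the medians were 86 and 136. Against all peaks of its replicate, the median canonical promoter peak stood at the percentile 99.54 in replicate 1 and 98.47 in replicate 2, and over all genes the medians were 98.67 and 96.75. Promoter peaks are strong in general, so genes were also ranked among promoters. Ranked among the strongest promoter peaks of all genes, the canonical genes had a median percentile of 78.81 in replicate 1, with a range of 37.74 to 99.91, and 73.11 in replicate 2, with a range of 34.32 to 98.62. Above the percentile 50 stood 73 of 78 in replicate 1 and 68 of 78 in replicate 2. Above the percentile 90 stood 15, or 19.2%, in replicate 1 and 17, or 21.8%, in replicate 2, against 10.2% and 9.90% of all genes with a peak.

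**Figure D1:**
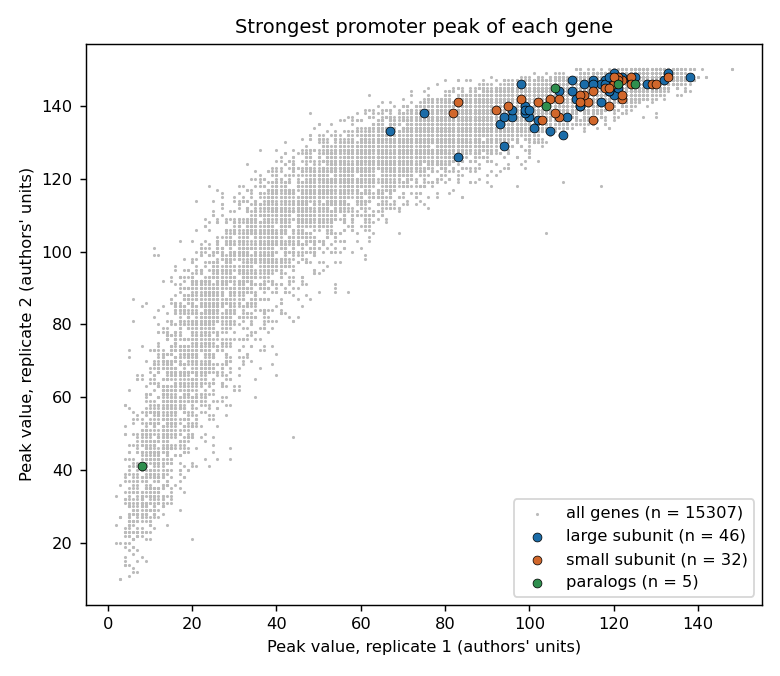
Value of the strongest promoter peak of each gene in replicate 1 (x axis) and replicate 2 (y axis), in the authors' units, for the 15307 genes with a promoter peak in both replicates (grey) and for ribosomal protein genes of the large subunit (blue), the small subunit (orange) and the paralogs (green). The canonical genes sit at 67 or more in replicate 1 and 126 or more in replicate 2, and the paralog Rps27rt stands alone at 8 and 41.

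The subunits did not separate. Large subunit genes had median values of 111.5 in replicate 1 and 143.5 in replicate 2, and small subunit genes 115 and 142.5. Their ranges overlapped in both replicates, at 67 to 138 against 82 to 133 in replicate 1 and 126 to 149 against 136 to 148 in replicate 2. The order within the family was partly kept between the replicates, with a Spearman coefficient of 0.787 over 78 canonical genes, against 0.935 over the 15307 genes with a peak in both. These coefficients describe genes that share the same 2 libraries. The canonical genes covered a narrower range of values than all genes, and the part of this in their lower coefficient was not tested.

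The highest ranked promoter was that of Rpl34, which encodes a large subunit protein. Its strongest peak had a value of 133 in replicate 1 at chr3:130730356-130730505 (mm10) and 149 in replicate 2 at chr3:130730376-130730525. Rpl13a, a large subunit protein gene that hosts 4 small nucleolar RNAs, followed with 138 in replicate 1 and 148 in replicate 2 at chr7:45128836-45128985, the same interval in both. Rpsa encodes the small subunit protein SA, known also as the laminin receptor precursor, and had values of 133 and 148 at chr9:120127616-120127765. These 3 genes lay above the percentile 99.7 of all peaks in both replicates, as did Rpl7a (120 in replicate 1 and 149 in replicate 2), Rpl27 (125 and 148) and Rps19 (124 and 148). Rps19 is the gene most often mutated in Diamond-Blackfan anaemia.

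The lowest ranked canonical genes still had strong peaks. Rpl6, which encodes a large subunit protein, had a value of 83 in replicate 1 and 126 in replicate 2 at chr5:121204416-121204565. Rpl4, whose product lines part of the exit tunnel for the nascent chain, had 67 in replicate 1 and 133 in replicate 2. Rpl5 had 94 and 129, Rpl26 had 108 and 132, and Rpl39, another tunnel protein gene, had 75 and 138. Of these 5 canonical genes, Rpl39, Rpl4 and Rpl6 were below the percentile 50 of gene promoters in replicate 1, and Rpl26, Rpl5, Rpl4 and Rpl6 were below it in replicate 2. Only Rpl4 and Rpl6 among the 78 were below it in both.

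**Figure D2:**
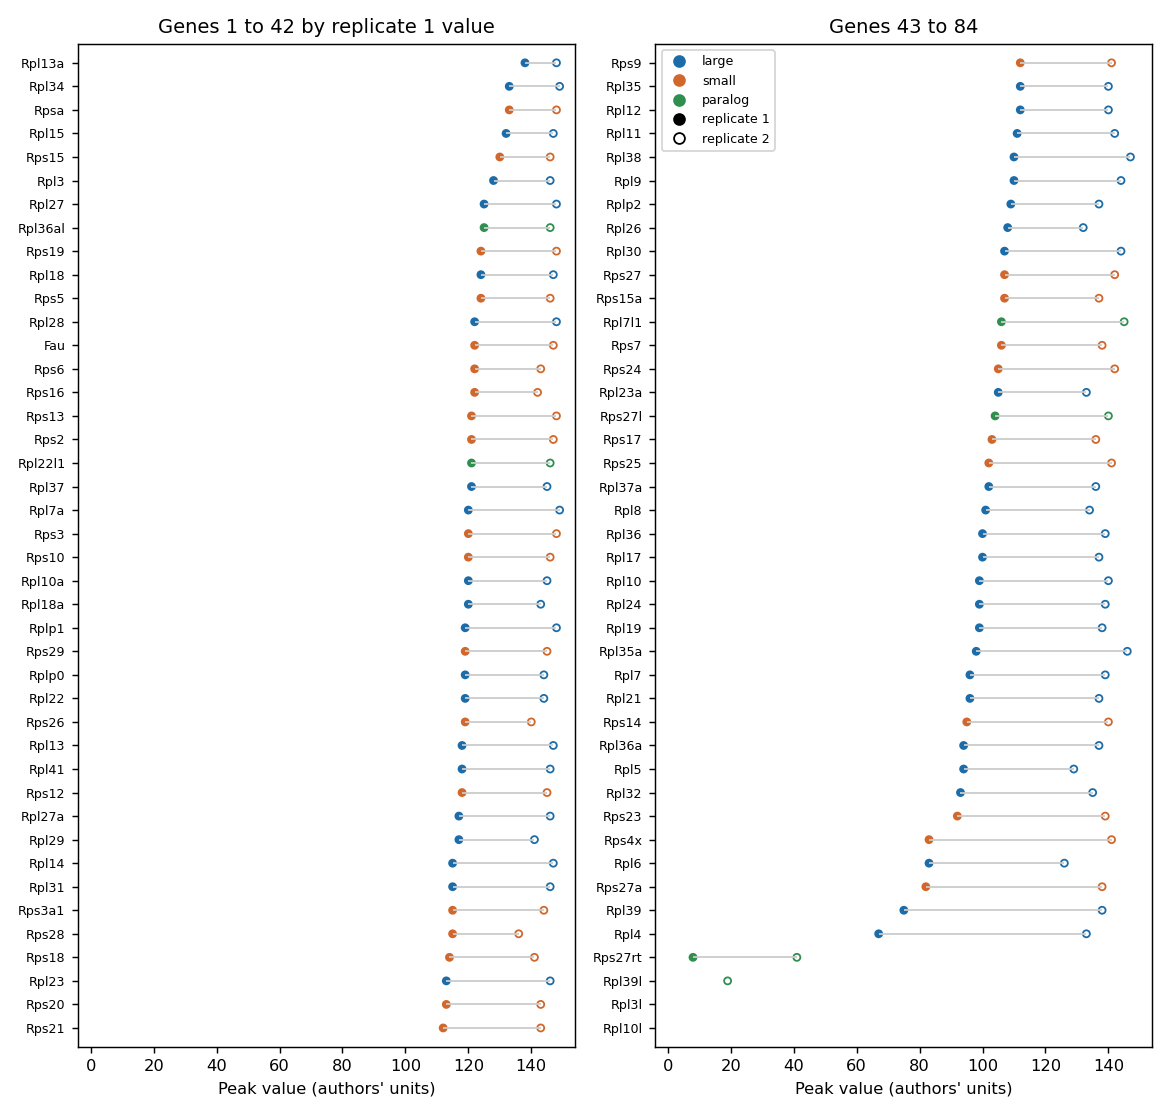
Value of the strongest promoter peak (x axis, authors' units) of 84 of the 86 ribosomal protein genes, ordered by replicate 1, with filled circles for replicate 1 and open circles for replicate 2, joined by a line. Colours give the large subunit, the small subunit and the paralogs. The canonical genes form an unbroken slope from Rpl13a at 138 to Rpl4 at 67 in replicate 1, and the paralogs Rps27rt, Rpl39l, Rpl3l and Rpl10l lie below it or have no peak.

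Each group of genes by role filled only part of the canonical range. The stalk proteins recruit translation factors to the large subunit. Rplp0, the scaffold of the stalk, had values of 119 in replicate 1 and 144 in replicate 2, Rplp1 had 119 and 148, and Rplp2 had 109 and 137. The products of Rpl5 and Rpl11 bind the 5S ribosomal RNA and can restrain the p53 inhibitor Mdm2. Rpl11 had 111 and 142, above the 94 and 129 of Rpl5. Fau and Rps27a are each made as a fusion with ubiquitin or a protein like it. Fau had 122 and 147, and Rps27a had 82 and 138. The 19 genes of the list of Diamond-Blackfan anaemia genes had median values of 112 in replicate 1 and 142 in replicate 2.

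The genes on the X chromosome stood in the lower part of the family in replicate 1. Rpl10 had a value of 99 in replicate 1 and 140 in replicate 2, Rpl36a had 94 and 137, Rpl39 had 75 and 138, and Rps4x had 83 and 141. All 4 lay below the canonical median of 113 in replicate 1 and of 143 in replicate 2. The embryos were of both sexes and their shares in the pool are unknown, and the part of the X copy number in these values was not tested.

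Peaks lay close to the start in most ribosomal protein genes. The offset is the distance from the centre of the strongest peak to the nearest annotated transcript start, negative where the centre is upstream. Its median size over the canonical genes was 35.5 bp in replicate 1 and 44.5 bp in replicate 2, against 66.5 bp and 59.5 bp over all genes with a peak. In mitochondrial ribosomal protein genes it was shorter still, at 30.5 bp and 39.5 bp. The centre was within 100 bp of a start in 73 of the 83 ribosomal protein genes with a peak in replicate 1, against 62.0% of all genes with a peak, and in 74 of 84 in replicate 2, against 66.4%. For the small subunit the counts were 30 of 32 and 32 of 32. The canonical genes carried a median of 6 annotated starts against 3 over all genes, and the part of this in the shorter offsets was not tested.

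The side of the start was close to that of other genes. The centre was upstream in 64 of 83 ribosomal protein genes in replicate 1, against 70.7% of all genes with a peak, and in 66 of 84 in replicate 2, against 70.4%. Coverage of the principal start, a single start per gene, differed more. The strongest peak covered it in 54 of 83 in replicate 1, against 40.0%, and in 51 of 84 in replicate 2, against 43.3%. That peak was picked from around all annotated starts, and the part of their number in this coverage was not tested. The strongest peak was the same interval in both replicates in 37 of the 78 canonical genes, or 47.4%, against 37.5% of all genes with a peak in both, and the centres lay within 20 bp in 68, or 87.2%, against 75.4% of all genes with a peak in both.

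**Figure D3:**
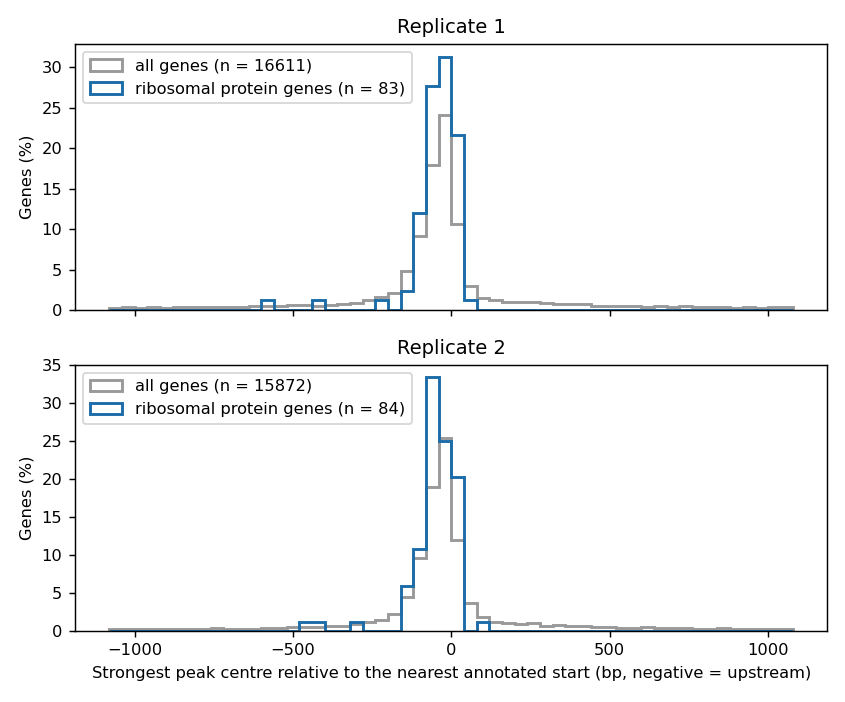
Share of genes (y axis, percent) by the distance of the strongest peak's centre from the nearest annotated start (x axis, bp, negative upstream) in replicate 1 (top) and replicate 2 (bottom), in bins of 40 bp, for all genes with a promoter peak (grey) and ribosomal protein genes (blue). Both distributions peak just upstream of the start, and the blue line holds 73 of 83 genes within 100 bp in replicate 1 and 74 of 84 in replicate 2.

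A few genes departed from this. In Rpl4 the strongest peak had an offset of -404.5 bp in both replicates, at chr9:64172896-64173045, on the side where Zwilch starts on the opposite strand. Rpl4 had a weaker shared peak at its own start, with a value of 52 in replicate 1 and 120 in replicate 2. The strongest peaks of the replicates did not overlap in Rpl7, Rpl18 and Rplp2. In Rpl7 the replicate 2 peak lay upstream at an offset of -288.5 bp, against -88.5 bp in replicate 1, and it was the only canonical strongest peak of replicate 2 that was not shared. Rps19 had its peak at -200.5 bp in replicate 1 and -80.5 bp in replicate 2.

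The promoter sequences were rich in a few short motifs. Exact matches were counted from 250 bp before to 50 bp after the principal start. The core CCGGAA, bound by ETS family factors such as GABPA, was found on either strand in 42 of 86 ribosomal protein genes, against 18.1% of all genes and 24.2% of the genes with an open promoter. The core TCTCGCG, part of the palindrome described for ZBTB33 and related factors, was found on either strand in 17 of 86, all of them canonical, against 3.40% of all genes and 4.73% of open promoters. Among the canonical genes, 47 of 78 had at least 1 of these 2 cores, against 20.4% of all genes. Rpl10a, Rpl26, Rpl27a, Rps19, Rps2, Rps3a1 and Rps6 were among those with both. Rps6 encodes the small subunit protein that is phosphorylated by S6 kinase.

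These cores were also found within the accessible interval itself. The ETS core lay in the strongest replicate 2 peak of 36 of 78 canonical genes, or 46.2%, against 18.4% of all such peaks. The TCTCGCG core lay in 14 of 78, or 17.9%, against 4.08%. Other cores were nearer to their share in all such peaks or below it: the NRF1 core was in 4 of 78 (5.13%, against 4.34%), the E-box in 6 (7.69%, against 6.65%), the SP and KLF core in 37 (47.4%, against 52.7%), the NF-Y core in 20 (25.6%, against 28.0%) and the YY1 core in 1 (1.28%, against 3.39%). A match describes letters in the sequence and not a bound factor.

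The promoters of Rpsa and Rpl7a are shown as strong members with these cores, Rpsa among the 6 highest values of replicate 1 and Rpl7a level with Rpl34 at the highest value of replicate 2. Each runs from 130 bases before to 30 bases from the principal start, on the strand of the gene, with ETS cores (CCGGAA or TTCCGG) and TCTCGCG cores in capitals and position 1 at the start. Rpsa (chr9:120127559-120127718, plus strand) has ETS cores at positions -110 and 9. Rpl7a (chr2:26910634-26910793, plus strand) has the TCTCGCG core at position -9.
Rpsa: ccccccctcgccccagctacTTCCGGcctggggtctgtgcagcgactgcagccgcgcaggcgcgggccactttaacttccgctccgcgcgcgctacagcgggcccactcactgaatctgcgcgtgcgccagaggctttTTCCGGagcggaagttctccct
Rpl7a: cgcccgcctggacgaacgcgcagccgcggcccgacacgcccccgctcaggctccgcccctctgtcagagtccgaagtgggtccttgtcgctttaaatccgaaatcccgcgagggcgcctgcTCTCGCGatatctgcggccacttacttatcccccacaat

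Other motifs stood nearer to their share over all genes than the ETS and TCTCGCG cores did. All of them but the NF-Y core and the TATA box were still above that share. The YY1 core AAGATGG, on either strand, was in 12 of 86 promoters, against 6.44% of all genes. The NRF1 core GCATGCG, on either strand, was in 8 of 86, against 4.68%, and the E-box CACGTG, which reads the same on both strands and is bound by Myc among others, in 10 of 86, against 7.70%. The SP and KLF core GGGCGG, on either strand, was in 46 of 86, against 45.4% of all genes, and below the 61.2% of open promoters. The NF-Y core CCAAT, on either strand, was in 25 of 86, against 38.5%. The TATA box TATAAA, on the sense strand, was in 5 of 86, namely Rpl22l1, Rpl36a, Rplp0, Rps2 and Rps28, against 8.78%. In the same window the promoters held a median of 21 CpG dinucleotides in the canonical genes, 19 in genes with an open promoter and 12 over all genes.

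**Figure D4:**
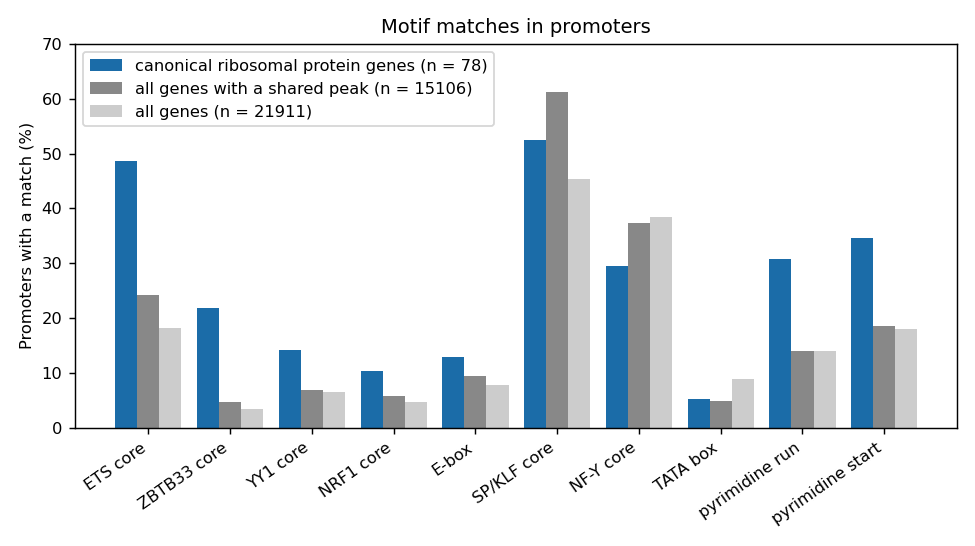
Share of promoters (y axis, percent) with an exact match to each motif (x axis) from 250 bp before to 50 bp after the principal start, and with a pyrimidine start, for the 78 canonical ribosomal protein genes (blue), the 15106 genes with an open promoter (dark grey) and all 21911 genes (light grey). The ETS core (48.7% of canonical genes), the ZBTB33 core (21.8%) and the pyrimidine start (34.6%) are among the features above both grey bars. The YY1 core and the pyrimidine run CTTTCC also stand above both, whereas SP/KLF and NF-Y do not.

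The terminal oligopyrimidine tract could be read at the principal start of a minority of the genes. A pyrimidine start was counted where a C followed by at least 4 pyrimidines began within 5 bases of the principal start. It was present in 29 of 86 ribosomal protein genes, against 17.9% of all genes. The core CTTTCC on the sense strand, anywhere in the window, was present in 26 of 86, against 13.9%. With at least 6 pyrimidines after the C, the canonical count was 23 of 78, or 29.5%, against 6.28% of all genes, and with the run at exactly the annotated base it was 10 of 78, or 12.8%, against 2.26%. Counting any protein-coding transcript start gave 44 of 78 canonical genes, against 32.9% of all genes. Annotated starts can lie a few bases from the start that cells use, so these counts are of the annotation.

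The runs are shown for 4 genes in which the run holds the annotated start and the principal start is also the gene's 5′ end. Each line gives the 20 bases before and the 20 bases from the start on the strand of the gene, with the run in capitals. Rpl4 (chr9:64173355-64173394), Rpl36 (chr17:56613396-56613435), Rpl37 (chr15:5116625-5116664) and Rpl37a (chr1:72711270-72711309) encode large subunit proteins. Their runs are 13, 6, 11 and 11 bases long in that order, counted from the first C that lies no more than 5 bases before the start. The strongest promoter peak of Rpl37 had 121 in replicate 1 and 145 in replicate 2, and that of Rpl4 had 67 and 133. Genes with long runs were thus found in the upper and in the lower part of the family. In Rpl4 the strongest peak lay at an offset of -404.5 bp, and the peak at the start with the run had 52 and 120.
Rpl4: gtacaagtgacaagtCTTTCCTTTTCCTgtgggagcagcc
Rpl36: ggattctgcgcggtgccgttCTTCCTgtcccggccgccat
Rpl37: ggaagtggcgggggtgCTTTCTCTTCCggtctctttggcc
Rpl37a: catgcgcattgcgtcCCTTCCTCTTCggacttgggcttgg

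Within the canonical genes these features went with small differences in peak value. Genes with an ETS core had median values of 115 in replicate 1 and 144 in replicate 2, and those without had 111 and 141.5. For the TCTCGCG core the medians were 117 and 144 with it and 112 and 142 without it. For a pyrimidine start they were 117 and 144 with it and 112 and 142 without it. The ranges overlapped widely in each case, as for the ETS core at 83 to 133 against 67 to 138 in replicate 1. These differences were given no test.

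The paralogs fell into 2 sets by their peaks. Rpl22l1, the paralog of Rpl22, had a value of 121 in replicate 1 and 146 in replicate 2, close to the 119 and 144 of Rpl22 itself. Rpl36al, an autosomal copy of the X-linked Rpl36a, had 125 and 146, above the 94 and 137 of Rpl36a, and shares its start region with Mgat2 on the opposite strand. Rpl7l1 had 106 and 145, and Rps27l, a p53-responsive relative of Rps27, had 104 and 140 beside the 107 and 142 of Rps27. These 4 lay in the range of the canonical genes in both replicates.

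The other 4 paralogs had weak peaks or none. Rpl10l, known as a testis gene that stands in for the X-linked Rpl10 during male meiosis, and Rpl3l, known from heart and skeletal muscle, had no promoter peak in either replicate. Rpl39l, known as a testis gene, had a peak of value 19 in replicate 2, at the percentile 0.77 of that replicate's peaks, and none in replicate 1. Rps27rt, a retrotransposed copy of Rps27, had a value of 8 in replicate 1 and 41 in replicate 2, at the percentiles 65.23 and 32.61. Those peaks lay upstream of its start, at offsets of -591.5 bp and -451.5 bp, and overlapped by less than 75 bp.

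The promoters of 3 of these paralogs and of Rps27 are shown to set an open canonical promoter beside copies with a weak peak or none. Each line runs from 130 bases before to 30 bases from the principal start, with ETS cores and the YY1 core in capitals. Rps27 (chr3:90213622-90213781, minus strand) has an ETS core at position 7 and the YY1 core at -71. Rps27rt (chr9:114982710-114982869, minus strand) has the ETS core at position 3. Rps27 and Rps27rt share an unbroken run of 26 bases, from position 5 in Rps27 and from position 1 in Rps27rt, that begins at the annotated start of the copy. The run reaches the last base shown for Rps27, so its full length may be greater. Rpl39l (chr16:10170098-10170257, plus strand) has ETS cores at positions -92, -4 and 5. Rpl10l (chr12:66284372-66284531, minus strand) has none of these cores, and its longest run in common with the same window of Rpl10 was 8 bases.
Rps27: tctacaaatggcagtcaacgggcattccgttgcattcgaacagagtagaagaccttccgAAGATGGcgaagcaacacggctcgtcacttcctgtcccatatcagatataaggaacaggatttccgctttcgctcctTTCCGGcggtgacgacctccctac
Rps27rt: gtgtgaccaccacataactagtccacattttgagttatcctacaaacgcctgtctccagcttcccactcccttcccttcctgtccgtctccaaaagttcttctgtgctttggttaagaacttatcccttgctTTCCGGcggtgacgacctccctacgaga
Rpl39l: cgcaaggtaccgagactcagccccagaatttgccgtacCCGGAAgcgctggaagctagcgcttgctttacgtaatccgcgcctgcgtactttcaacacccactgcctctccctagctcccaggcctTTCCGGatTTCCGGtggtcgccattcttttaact
Rpl10l: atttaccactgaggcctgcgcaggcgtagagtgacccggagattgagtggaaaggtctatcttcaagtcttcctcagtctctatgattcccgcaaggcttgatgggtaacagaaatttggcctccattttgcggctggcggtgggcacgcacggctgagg

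An ETS core at the start was thus present in Rps27rt and Rpl39l, whose promoter peaks were weak or seen in a single replicate. Short reads from near-identical copies can be placed at the wrong copy or discarded, and how such reads were handled is not given in the sources used here, so the lack of a peak within Rps27rt itself is uncertain. The peaks counted for it lay outside the gene.

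The number of distal peaks around the genes was close to that of other genes. A distal peak was a shared peak whose centre lay more than 1000 bp from any protein-coding transcript start, counted within 50 kb of the gene's 5′ end. The 86 genes had a median of 6, against 5 over all genes, and a median of 2 within 20 kb, the same as over all genes. The most were found around Rpl19 with 23, Rpl34 with 21 and Rplp1 with 19. Rpl36, Rps27 and Rpl39l had 0, or 3 of 86, against 13.1% of all genes. Counted per replicate, Rpl19 had 60 distal peaks in replicate 1 and 31 in replicate 2, and Rpl36 had 5 and 4. Peaks within this distance may belong to neighbouring genes. The canonical genes had a median of 4 protein-coding genes starting within it, against 3 over all genes, in a count that does not leave out the gene itself.

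The genes were short and often hosted small nucleolar RNAs. The canonical genes had a median length of 3266 bp, against 17433 bp over all genes. A small nucleolar RNA gene lay within 30 of the 86 genes, against 1.18% of all genes, with 5 in Rpl4 and 4 in Rpl13a. Canonical hosts had median peak values of 114 in replicate 1 and 143.5 in replicate 2, and canonical genes without such an RNA had 112 and 142. A protein-coding gene started on the opposite strand within 1 kb in 14 of 86, against 10.1% of all genes. These included Fau with Mrpl49, which encodes a mitochondrial ribosomal protein, Rpl7a with Med22, Rps18 with Vps52 and Rps28 with Ndufa7. The 13 canonical genes with such a neighbour had median values of 112 and 142, and the 65 without had 113 and 143. The peak of such a promoter may belong to either gene.

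Other genes of the translation machinery were as uniformly open. All 78 mitochondrial ribosomal protein genes, all 38 translation factor genes, all 30 ribosome biogenesis genes and all 16 genes of a list of oligopyrimidine genes and ribosomal protein genes under other names had a shared promoter peak, against 68.9% of all genes. The strongest peaks of mitochondrial ribosomal protein genes had median values of 99 in replicate 1 and 140 in replicate 2, below the 113 and 143 of the canonical cytosolic genes. By the mean percentile of both replicates the lowest was Mrpl3 (67 in replicate 1 and 115 in replicate 2) and the highest Mrpl48 (130 and 149). The values of the list ran from 56 to 138 in replicate 1 and from 115 to 149 in replicate 2. Translation factor genes had medians of 114 and 144, with Eif4g2 at 135 and 149 and Eif1ax at 55 and 111. Ribosome biogenesis genes had medians of 107.5 and 139.5, with the nucleolin gene Ncl at 130 and 149 and the RNA polymerase I factor gene Taf1b at 58 and 117. The oligopyrimidine list had medians of 119.5 and 146, with Eif4b at 134 and 148. Most genes of this list, Eif4b among them, are also in the translation factor or ribosome biogenesis list, so these lists overlap.

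Mitochondrial and cytosolic ribosomal protein genes were also set side by side in sequence and arrangement. An ETS core was in 43 of 78 mitochondrial genes and 38 of 78 cytosolic canonical genes, against 18.1% of all genes. The TCTCGCG core was in 6 of 78 mitochondrial and 17 of 78 cytosolic genes, against 3.40%. A pyrimidine start with at least 6 pyrimidines was in 4 of 78 mitochondrial and 23 of 78 cytosolic genes, and in 6 of 16 of the oligopyrimidine list, against 6.28% of all genes. A protein-coding start on the opposite strand within 1 kb was found in 31 of 78 mitochondrial and 13 of 78 cytosolic genes, against 10.1%. No mitochondrial gene and 30 of the cytosolic genes held a small nucleolar RNA gene, against 1.18%. These counts were given no test.

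**Figure D5:**
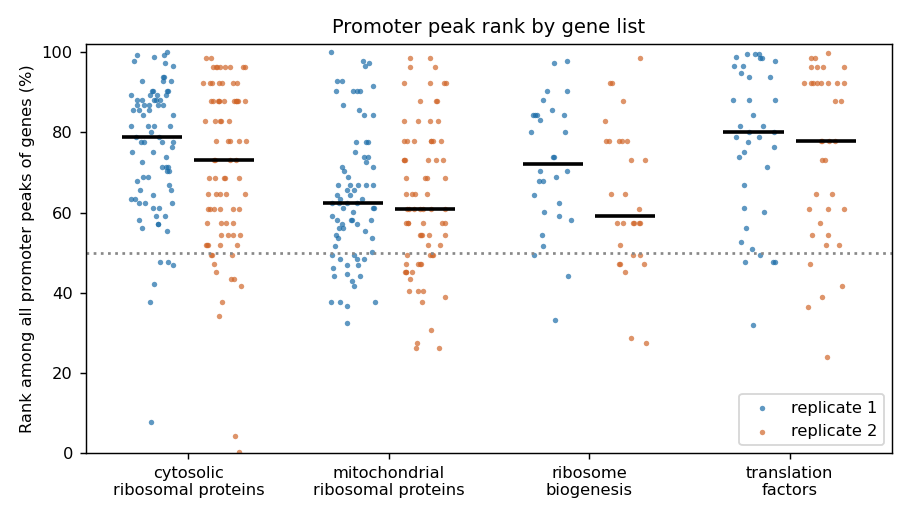
Percentile of each gene's strongest promoter peak among the strongest promoter peaks of all genes (y axis) for the cytosolic ribosomal protein genes with a peak and for 3 other lists (x axis), with blue points for replicate 1, orange points for replicate 2 and black bars for medians. The dotted line marks the percentile 50. All black bars lie above it, and the mitochondrial list stands below the cytosolic list in both replicates.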

How the data were processed

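DNase-seq peaks and hotspots of 2 biological replicates of midbrain at embryonic day 14.5 were used as deposited, per the labels on the assembly mm10. The authors called them separately in each replicate. For the aligner, the peak caller, filters and versions: not given in the sources used here. In the deposited peak lists the signal value (at most 150) has no definition or depth scaling in the sources used here. It lies nearer to its maximum in replicate 2 and was ranked and summarised only within a replicate, so differences in it have no known scale. The deposited hotspot lists give a −log10 q, capped at 100. Peaks are 150 bp wide and lie on a 20 bp grid, apart from 2 in replicate 1, so offsets are no finer than that. Repeated intervals, 77 in replicate 1 and 36 in replicate 2, were kept.

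Genes and starts came from GENCODE release M21 and sequence from GRCm38.p6. RefSeq promoters found for 66 of the 86 genes were identical to the sequence read here. The strongest promoter peak was that with the highest value among those overlapping 1000 bp on either side of any start. The principal start was that of the APPRIS principal transcript. Genes were named where they ranked among the 6 highest or lowest, were paralogs, lacked a promoter peak or held a stated role. Those with the most or 0 distal peaks were named too. A further rule, a strongest peak over 500 bp from a start in both replicates, was met by no ribosomal protein gene. Genes named with a sequence, motif, neighbour, offset, small nucleolar RNA or the X chromosome were chosen after their values were seen. The genes, lists, motifs and rules were chosen with earlier results of these data known. With 1 group, no test across samples was possible, and counts and medians are set beside those of all genes. The programs recovered planted peaks on simulated data. Sequence was read with pysam 0.24.0 under Python 3.11.15, tables were made with pandas 2.3.3 and numpy 2.4.6, and figures with matplotlib 3.10.9. Some genes and sequences are not reported here.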

Additional observations from a re-analysis of the deposited data

How the results depend on the processing

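The count of 83 genes with an open promoter ranged from 80 (starts limited to the gene's 5′ end) to 84, and was 82 with peaks at or above the replicate's median or with an overlap of 75 bp. Leaving out a replicate gave 83 to 84. The median percentile of 99.0 (mean of the replicates, 97.91 over all genes) ranged from 98.47 to 99.54 without a replicate and was 75.33 among promoter peaks of genes, against 53.57 over all genes, because the set ranked against is then only promoters. The median offset of 40 bp (62.5 bp over all genes) was 35.5 to 46.0 bp without a replicate and 29.5 bp, against 40.5 bp, for the peak nearest to a start. Distal peaks had a median of 9 to 18 in a single replicate, against 8 and 16 over all genes. With the gene body added to the 50 kb on each side, the median was 6.0 against 7.0, so the order of the family and all genes turned. The pyrimidine start, in 33.7% of the genes, was in 12.8% when required exactly at the start and in 55.8% when any protein-coding start was allowed, against 2.3% and 32.9% of all genes. The requirement of 6 pyrimidines, the canonical genes alone and the genes without an opposite-strand start were alternatives chosen after seeing the data. No paired analysis was possible because there is 1 group. Depth is unknown, and the replicates differ in the number of peaks, so a missing weak peak, as in Rpl39l, is not evidence of closed chromatin.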

Other observations

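Processed copies of ribosomal protein genes, listed in the annotation under names with -ps, were outside the rule and were looked at after the other values were seen. Of 296 such pseudogenes, 67 had a peak within 1000 bp of their start in replicate 1 and 18 in replicate 2, and 13, or 4.39%, had a shared peak, where 75.8%, 72.4% and 68.9% of protein-coding genes did. The share for other windows of the genome was not counted. Among the 289 that lay more than 2000 bp from a protein-coding start, 12 had a shared peak, or 4.15%. Of these 289, 65 had a peak in replicate 1 and 17 in replicate 2, shared or not. The median value of the strongest peak was 6 over those 65 and 50 over those 17. An example with a shared peak was Rpl10-ps2 on chromosome 8, with values of 15 in replicate 1 and 48 in replicate 2. Some copies with a shared peak had higher values, as Rpl5-ps2 on chromosome 2 with 50 in replicate 1 and 113 in replicate 2. Reads inside such copies may have come from their parent genes or the reverse.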
